A study of Homo sapiens with 3 samples.

Results

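The integrated stress response genes described here are ATF4, ATF3, DDIT3, DDIT4, TRIB3, CHAC1, ASNS, SESN2, PPP1R15A and EIF2AK3. They were taken by name as genes of a known pathway, a choice made with earlier results of these data in view, and all 10 were found among the 13247 protein-coding genes of the table. In this response, kinases that sense different stresses phosphorylate the translation initiation factor eIF2. General protein synthesis slows, while the mRNA of the transcription factor ATF4 is translated more through its upstream open reading frames. ATF4 and the factors it induces then switch on genes of amino acid supply, redox balance and cell death, together with genes that shut the response down again. In liver cells the arm that starts at EIF2AK3 is known for its activation by saturated fatty acids such as palmitate.

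The libraries hold RNA that came down with DDX49, an RNA helicase of the DEAD-box family that carried a Flag tag, from HHL5 cells, an immortalised human liver line that the labels also call embryonic liver cells of wild-type genotype. All 3 replicates had received the Flag-DDX49 construct and 24 h of OA/PA (a name usually standing for oleic and palmitic acid) at 1.5 mM and a ratio of 2 to 1, and RNA was captured after ultraviolet cross-linking (RNA immunoprecipitation sequencing, RIP-seq). With 1 group and no input, mock pull-down or untreated cells among the libraries analysed here, no comparison of conditions could be made. A transcript's level therefore joins its abundance and its recovery with DDX49, and a smaller number of cells expressing it cannot be told apart from less RNA per cell. Of 15 hepatocyte markers 6 were in the table, and 4 of these had a mean below 1 CPM (counts scaled so that a library totals 1000000), with FGA and FGB at 0 counts; the others were CPS1 (1726 ± 45.9 CPM, mean ± SD, n = 3 here and throughout) and CEBPA (1.72 ± 0.317). Library totals were 2023133, 1461858 and 1096586 counts in replicates 1, 2 and 3, so 1 count was worth 0.494, 0.684 and 0.912 CPM. DDX49 itself took 3.53%, 4.15% and 5.09% of these counts.

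The promoters of 4 of the 10 genes held a short motif through which factors of this response are known to act, and these stretches are shown because they match DNA elements that ATF4 and its relatives are known to use. RefSeq promoter windows (GRCh38.p14, 250 bases before to 50 bases after a transcript start) were available for all 10 genes, 16 windows in all. The core of the C/EBP-ATF response element, TGATGNAA on either strand, was found in 1 window each of ATF3, ASNS and CHAC1, and in 3.62% of all 35116 windows. The palindromic ATF/CREB site TGACGTCA was found in the window of PPP1R15A and in 1.85% of all windows. Each stretch below reads 5′ to 3′ on the strand of its gene, with the matched letters in capitals, and positions are counted from the transcript start.
ASNS, chr7:97872429-97872516, minus strand, match at -68 to -61: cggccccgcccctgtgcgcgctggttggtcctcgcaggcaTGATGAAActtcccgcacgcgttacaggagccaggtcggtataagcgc
CHAC1, chr15:40953222-40953309, plus strand, match to the reverse complement at -209 to -202: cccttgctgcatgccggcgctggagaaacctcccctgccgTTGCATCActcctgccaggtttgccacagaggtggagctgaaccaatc
ATF3, chr1:212565176-212565263, plus strand, match at -191 to -184: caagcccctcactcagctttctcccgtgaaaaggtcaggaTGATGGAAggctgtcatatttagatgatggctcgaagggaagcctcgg
PPP1R15A, chr19:48872323-48872410, plus strand, match at -58 to -51: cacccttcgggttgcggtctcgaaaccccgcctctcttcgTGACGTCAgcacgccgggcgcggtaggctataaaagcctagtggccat
A match describes letters in the window and not a bound site, and the pull-down carries no measurement of DNA binding. Neither motif was present in the windows of ATF4, DDIT3, DDIT4, SESN2, TRIB3 and EIF2AK3, which says nothing of elements outside them.

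Together the 10 transcripts took 1148, 1166 and 1244 CPM in replicates 1, 2 and 3, or 0.119% of all counts on average. Of these genes, DDIT4, ATF4 and PPP1R15A supplied most of the counts, a middle group of DDIT3, TRIB3, ATF3 and EIF2AK3 lay near 50 to 66 CPM, and SESN2, ASNS and CHAC1 were lowest. All 10 had a mean above 1 CPM, and 7 lay above 27.0 CPM, the median of the 10815 genes whose mean reached 1 CPM. CPM is a share of counts and is not divided by transcript length, which no table used here gives, so the order is one of counts and not of molecules. The 95% Wilson intervals of single values cover counting error only, and ran from 299 to 349 CPM for ATF4 in replicate 1, for example, and from 0.698 to 6.03 CPM for CHAC1 in replicate 2.

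**Figure D1:**
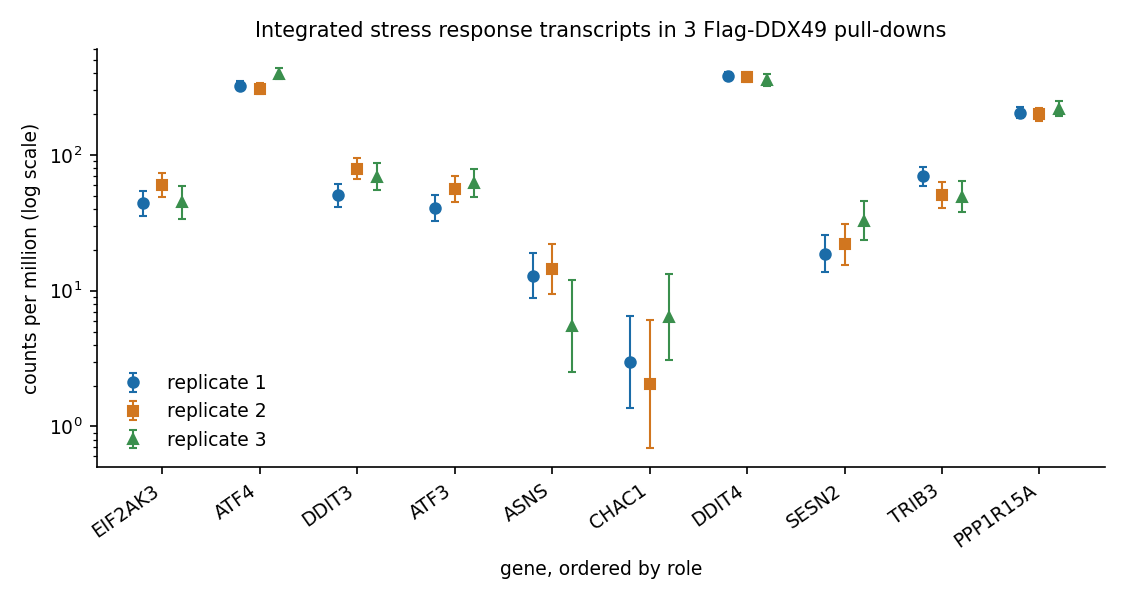
CPM (vertical axis, log scale) of each of the 10 genes in replicates 1, 2 and 3, with 95% Wilson intervals of the counting error as bars. DDIT4, ATF4 and PPP1R15A lie between 199 and 397 CPM in each library. CHAC1 lies at 2.05 to 6.38 CPM, lowest in replicates 1 and 2, and ASNS is lowest in replicate 3, at 5.47 CPM.

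The sensor of the group, EIF2AK3 (ENSG00000172071, chr2:88556741-88628145 in hg38), encodes PERK, the kinase of the endoplasmic reticulum membrane that phosphorylates eIF2 when unfolded proteins build up. It had 44.0, 60.2 and 44.7 CPM (89, 88 and 49 counts) in replicates 1, 2 and 3, a mean of 49.6 ± 9.16. Replicate 2 was the highest, and the other libraries lay close together. Its span overlaps the long noncoding genes EIF2AK3-AS1 and EIF2AK3-DT, and the sources used here do not say how strand was treated in counting, so reads from an antisense partner could not be told apart.

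ATF4 (ENSG00000128272, chr22:39520559-39522686), the central transcription factor of the response, was among the most abundant transcripts of the group. Its levels were 323, 307 and 397 CPM (654, 449 and 435 counts), a mean of 342 ± 47.7, which lay above 95.2% of the genes of at least 1 CPM. Replicate 3 stood above the other libraries. RefSeq names 4 ATF4 pseudogenes, and how reads shared with them were counted is not given, so the level is uncertain to that extent.

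DDIT3 (ENSG00000175197, chr12:57516588-57520517) encodes CHOP, the factor linked to cell death after prolonged stress. It had 50.4, 79.4 and 69.3 CPM (102, 116 and 76 counts), a mean of 66.4 ± 14.7, with replicate 1 the lowest. Its span overlaps 3 other genes, MARS1, LOC128125814 and MIR616. MARS1, the gene of a tRNA synthetase, itself had 230 ± 20.2 CPM, so a share of reads at the overlap is uncertain. ATF3 (ENSG00000162772, chr1:212565407-212620777), a further ATF4 target that can repress or activate transcription, had 40.5, 56.1 and 62.0 CPM (82, 82 and 68 counts). Here too replicate 1 was the lowest, and the mean was 52.9 ± 11.1. Both were above the median of all genes, at percentiles 72.4 and 66.9.

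The 2 enzymes of the group were near the bottom of its range. ASNS (ENSG00000070669, chr7:97851677-97928441), which makes asparagine and whose promoter holds a match shown above close to its start, had 12.9, 14.4 and 5.47 CPM from 26, 21 and 6 counts, a mean of 10.9 ± 4.76. Replicate 3 was lowest, with a Wilson interval of 2.51 to 11.9 CPM that overlaps those of replicates 1 (8.77 to 18.8) and 2 (9.40 to 22.0). RefSeq names 5 ASNS pseudogenes, and the span of ASNS overlaps 3 other genes, CZ1P-ASNS, SNRPCP9 and RPS3AP29. How shared reads were counted is not given, so the level of ASNS is uncertain to that extent. CHAC1 (ENSG00000128965, chr15:40953471-40956512), which breaks down glutathione, had 2.97, 2.05 and 6.38 CPM from only 6, 3 and 7 counts, a mean of 3.80 ± 2.28, above 12.7% of the background genes. Its intervals of 1.36 to 6.47, 0.698 to 6.03 and 3.09 to 13.2 CPM overlapped, which is not itself a test of a difference. At this depth CHAC1 entered the between-library test described below only with a summed count minimum of 10, and was not called.

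Among the genes that restrain growth or end the response, DDIT4 (ENSG00000168209, chr10:72273924-72276036) was the highest of all 10 by counts. DDIT4, also called REDD1, inhibits the growth kinase complex mTORC1. It had 381, 376 and 357 CPM (770, 549 and 392 counts), a mean of 371 ± 12.2, and the largest library value was only 1.06 times the smallest. PPP1R15A (ENSG00000087074, chr19:48872421-48876058) encodes GADD34, which brings a phosphatase to eIF2 and so restores translation. Its 205, 199 and 220 CPM (414, 291 and 241 counts) gave a mean of 208 ± 10.7. For both genes the libraries lay close together, with at most 1.10 times between the highest and lowest.

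TRIB3 (ENSG00000101255, chr20:380760-397559), a pseudokinase that ATF4 and CHOP induce and that dampens ATF4 activity, had 69.7, 50.6 and 49.2 CPM (141, 74 and 54 counts), a mean of 56.5 ± 11.4. Its highest value was in replicate 1, where DDIT3 and ATF3 had their lowest. Of all genes of at least 1 CPM, 39.7% were highest and 28.5% lowest in that library. SESN2 (ENSG00000130766, chr1:28259518-28282491), a leucine-binding inhibitor of mTORC1, had 18.8, 21.9 and 32.8 CPM (38, 32 and 36 counts). Its mean of 24.5 ± 7.38 lay at percentile 47.8, close to the middle of all genes, with replicate 3 the highest.

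Ordered by mean counts, the genes ran DDIT4, ATF4, PPP1R15A, DDIT3, TRIB3, ATF3, EIF2AK3, SESN2, ASNS and CHAC1, with 97.7 times between the first and last means. Of the 9 neighbouring pairs 4 were apart in all 3 libraries: ATF4 over PPP1R15A, PPP1R15A over DDIT3, EIF2AK3 over SESN2, and SESN2 over ASNS. Ranges overlapped in the other 5 pairs. DDIT4 exceeded ATF4 in 2 libraries and lay below it in replicate 3, TRIB3 exceeded ATF3 in 1 library, and CHAC1 exceeded ASNS in replicate 3. A sign-flip test of 3 libraries cannot give a p below 0.25, so no test was made of the order.

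The median log2(CPM + 1) of the 10 genes lay 0.97 ± 0.20 above that of the 10815 background genes, with 0.75, 1.09 and 1.08 in replicates 1, 2 and 3. In CPM, the median member had 47.2, 58.1 and 55.6, against 27.7, 26.7 and 25.5 for all background genes. The distance depends on which genes form the background: it was 0.19 ± 0.19 against genes of at least 10 CPM, and 1.62 ± 0.20 with no filter.

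**Figure D2:**
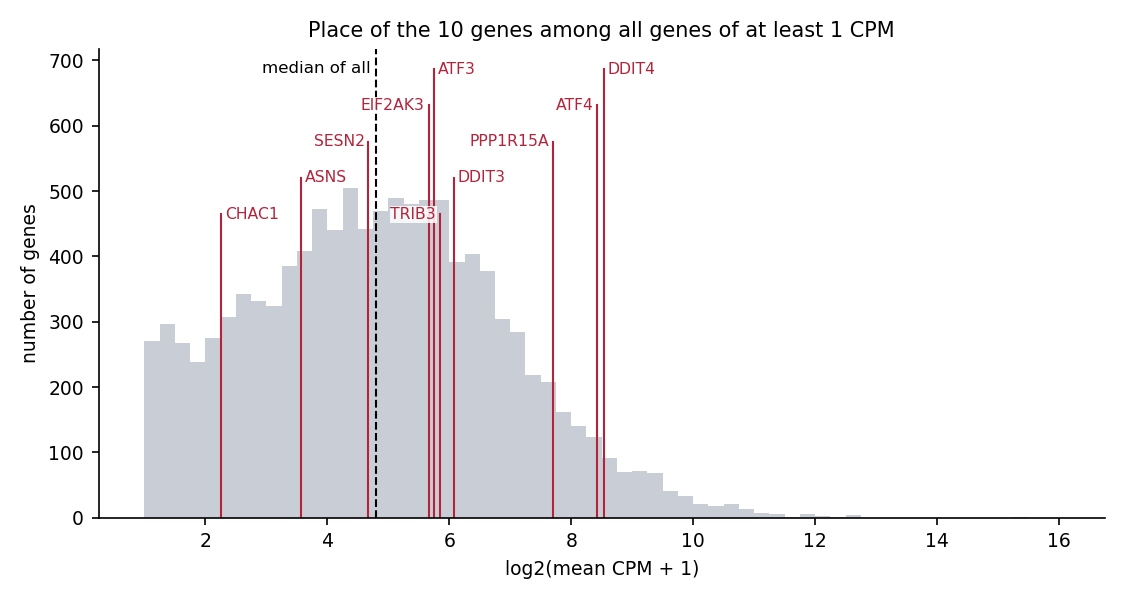
Number of genes (vertical axis) by log2(mean CPM + 1) for the 10815 genes whose mean reached 1 CPM in grey, with the 10 stress response genes as labelled red lines and the median of all as a dashed line. CHAC1, ASNS and SESN2 lie below the median and the other 7 above it, with DDIT4 and ATF4 in the upper tail.

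Differences between the libraries were tested for each gene with a chi-square test of its 3 counts against the library totals, with Benjamini-Hochberg adjustment at 0.05 over the 8633 genes whose counts summed to 30 or more. This test compares libraries of 1 group with each other and not conditions, and the labels do not say that the replicates were separate cultures, so their spread could be technical alone. Of the 9 stress response genes tested 2 differed by more than counting error (22.2%), against 19.6% of all genes tested, so the members' share was near the background. ATF4, highest in replicate 3, was called (adjusted p = 0.00415, chi-square test over all genes), as was DDIT3, lowest in replicate 1 (adjusted p = 0.0226). The other 7 gave adjusted p-values of 0.0827 to 0.722, lowest for ATF3 and TRIB3 (0.0904) and highest for DDIT4. CHAC1 had too few counts to be tested at this minimum. With a minimum of 10 all 10 members were tested, and again only ATF4 and DDIT3 were called, against 17.1% of all genes.

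Both calls depended on which libraries entered the test. Without replicate 3 the adjusted p of ATF4 was 0.684, and that of DDIT3 was 0.629 without replicate 1 and 0.130 without replicate 2. In these comparisons of 2 libraries 1 member was called each time, ATF4 without replicates 1 or 2 and DDIT3 without replicate 3, while 6.77%, 16.6% and 5.80% of all genes tested were called without replicates 1, 2 and 3. With DESeq2 size factors in place of totals ATF3 was called as well (adjusted p = 0.0478), against 18.5% of all genes. The coefficient of variation beyond counting error, from an intercept-only edgeR model, ran from 8.25% for DDIT4 and 9.23% for PPP1R15A to 28.9% for ASNS, with a median of 15.3% over the 9 genes and 16.6% over all 8633. That model draws each gene toward the trend of all genes at its level, which was 9.31% at DDIT4, 10.1% at PPP1R15A and 28.2% at ASNS. Taken from each gene's own SD less its Poisson part, the coefficient was 0% for DDIT4 and PPP1R15A and 35.6% for ASNS.

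**Figure D3:**
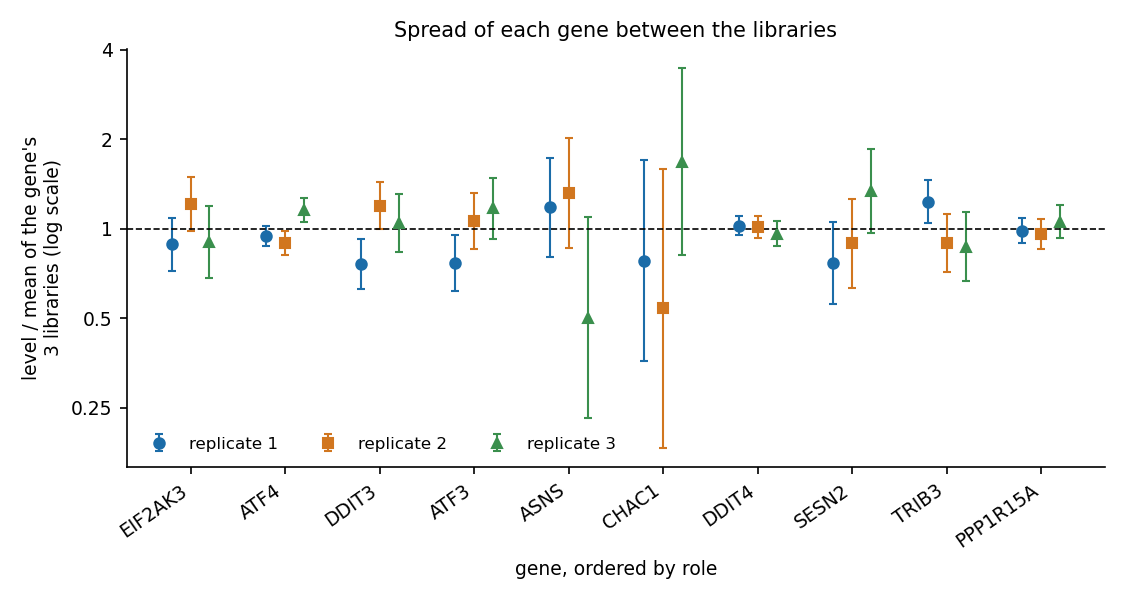
Level of each gene in each library divided by the mean of its 3 libraries (vertical axis, log scale), with 95% Wilson intervals of the counting error. DDIT4 and PPP1R15A stay close to 1, ATF4 is high in replicate 3, DDIT3 and ATF3 are low in replicate 1, and TRIB3 is high there.

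Ratios of counts within a library are free of differences in depth, and their change between libraries is free of transcript length, although the ratio itself is not. The DDIT3 to ATF4 count ratio was 0.156 (95% interval 0.127 to 0.192), 0.258 (0.211 to 0.317) and 0.175 (0.137 to 0.223) in replicates 1, 2 and 3. The intervals of replicates 1 and 2 did not overlap. The ATF3 to ATF4 ratio was 0.125, 0.183 and 0.156, with overlapping intervals, and that of CHAC1 to ATF4 stayed between 0.00668 and 0.0161. PPP1R15A had 0.833, 0.776 and 0.691 counts for each count of PPP1R15B, the constitutive adaptor of the same phosphatase, again with overlapping intervals. EIF2AK3 had 0.578 (0.446 to 0.750), 1.05 (0.778 to 1.41) and 1.02 (0.687 to 1.52) counts per count of EIF2AK2, so replicates 1 and 2 differed by more than their intervals here too. Per count of EIF2AK1, EIF2AK3 had 0.170 (0.136 to 0.2125), 0.268 (0.2122 to 0.339) and 0.244 (0.179 to 0.333) counts. The intervals of replicates 1 and 2 barely overlapped there. Per count of EIF2AK4 it had 0.881, 0.752 and 0.598, with overlapping intervals. Of the 7 ratios formed, only DDIT3 to ATF4 and EIF2AK3 to EIF2AK2 had intervals that did not overlap between a pair of libraries.

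The wider pathway was described through 10 lists of genes of known roles, which hold 73 genes of the table besides the 10 and were chosen with earlier results of these data known. Among the 4 eIF2 kinases, EIF2AK3 had the lowest mean, although EIF2AK2 had slightly fewer counts in replicates 2 (84 against 88) and 3 (48 against 49). EIF2AK1, the heme-regulated kinase, had 222 ± 37.9 CPM, EIF2AK4 (GCN2), the sensor of uncharged tRNA, 68.2 ± 16.1, and EIF2AK2 (PKR), the sensor of double-stranded RNA, 59.1 ± 16.2. These 3 kinases were called between libraries, against 19.6% of all genes tested, while EIF2AK3 did not pass (adjusted p = 0.194, chi-square test over all genes). EIF2AK3 had the fewest summed counts of the 4, so the test was weakest there and does not show it to be steadier. EIF2AK1 was highest in replicate 1 (259, 224 and 183 CPM, adjusted p = 0.00256, chi-square test over all genes) and EIF2AK4 lowest there (49.9, 80.0 and 74.8, adjusted p = 0.0118).

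The target of these kinases, eIF2, and its exchange factor eIF2B were represented by 8 of 8 subunits, of which 7 lay above the background median. EIF2S3 (355 ± 22.6 CPM), EIF2S2 (123 ± 9.80) and EIF2B4 (83.9 ± 4.81) were highest. Between libraries 2 of 8 differed, EIF2B3 and EIF2B5, against 19.6% of all genes tested. Of the 5 genes of the eIF2 phosphatase all lay above that median. PPP1R15B had 246, 257 and 318 CPM, a mean of 273 ± 39.2, and was called (adjusted p = 0.00777), with replicate 3 the highest. PPP1R15A and the catalytic subunit PPP1CA (158 ± 10.7) followed.

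Among the 7 bZIP factors, the family of DNA-binding proteins that pair with ATF4 and CHOP, CEBPB (156 ± 14.6 CPM) and JDP2 (82.7 ± 15.6) came next after ATF4. Of the 7 tested 3 were called, against 19.6% of all genes tested. These were JDP2 and the members ATF4 and DDIT3, already given above. Close relatives of the 10 genes were low, apart from PPP1R15B. TRIB1 had 9.22 ± 3.47 CPM, CHAC2 8.36 ± 3.04, and TRIB2 a single count in 1 library (0.165 ± 0.285 CPM). The relatives of SESN2, SESN1 (2.41 ± 0.881) and SESN3 (1.19 ± 0.690), were named after their values were seen. The 6 relatives in the table had a median of 5.38 CPM.

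Known ATF4 targets of amino acid metabolism ranged widely. In synthesis, PYCR1 of proline synthesis (246 ± 48.8 CPM), PHGDH, the first enzyme of serine synthesis (225 ± 5.18), and the mitochondrial serine enzyme SHMT2 (206 ± 10.6) were highest, and 7 of 10 lay above the background median. ASNS was one of the 3 below it, beside CTH (10.5 ± 4.41) and MTHFD2 (3.50 ± 2.16), both named after their values were seen. In this list PYCR1 and GPT2 were called between libraries, 2 of 9 tested, against 19.6% of all genes tested. In transport, SLC7A5 (2814 ± 299), SLC38A2 (611 ± 62.2) and SLC1A5 (539 ± 43.6) were highest. Of 7 tested 6 were called, against the same 19.6% of all genes. This list had the highest median level of the 10 lists (313 CPM), and the test picks up smaller differences at higher counts. SLC7A5, a large neutral amino acid carrier, had 2541, 2768 and 3133 CPM. Replicate 3 was the highest, as for 5 of the 10 members, ATF4 among them, and for 31.9% of all genes of at least 1 CPM.

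Of the transcripts of tRNA charging 1 of 12 tested was called between libraries, IARS1, against 19.6% of all genes tested. AARS1 (327 ± 13.2 CPM), SARS1 (279.8 ± 2.67) and EPRS1 (258 ± 24.0) were highest, 12 of 13 lay above the background median, and TARS1, singled out after its value was seen, had 1.30 ± 1.24. Of the secreted and surface targets, the angiogenic factor VEGFA had 440.4 ± 6.91 CPM, STC2 63.9 ± 3.96, and the stress hormone GDF15 56.6 ± 14.0, while FGF21 had a single count in replicate 2 and 0 counts in the others. A count of 0 allows up to 1.48 CPM in replicate 1 and 2.74 in replicate 3 (3 counts of the total). GDF15 was called, with 40.5, 66.4 and 62.9 CPM (adjusted p = 0.0170, chi-square test over all genes). It was lowest in replicate 1, as were DDIT3, ATF3 and 28.5% of all genes of at least 1 CPM.

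The other arms of the unfolded protein response, which start at IRE1 and ATF6, had 14 genes in the table, 11 above the background median. The chaperones HSP90B1 (1389, 1681 and 2070 CPM), HSPA5 (984, 1066 and 1237) and the disulfide isomerase PDIA4 (642, 715.5 and 716) were highest, and CRELD2 had a mean below 1 CPM (4, 0 and 0 counts). Of 13 tested 4 were called, HSP90B1, HSPA5, ATF6 and DNAJB9. Over all lists 21 of the 64 tested genes besides the 10 were called (32.8%), against 19.6% of all genes tested. The share called was 22.7% among the 5951 genes whose counts summed to 100 or more.

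**Figure D4:**
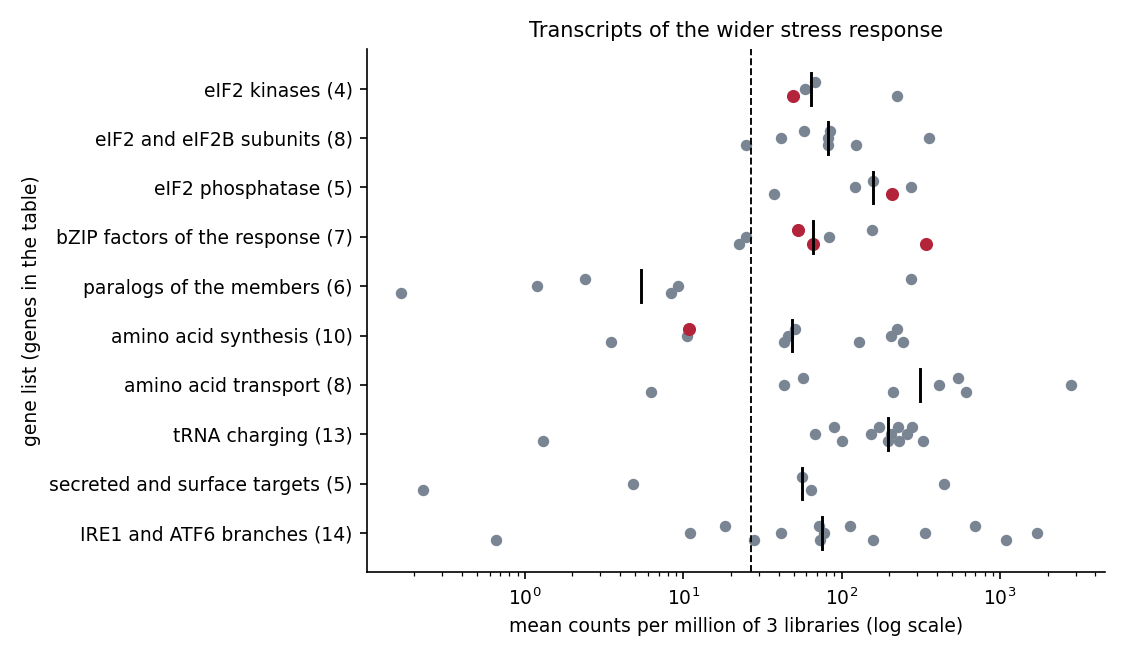
Mean CPM of 3 libraries (horizontal axis, log scale) of the genes of each of the 10 lists, with the stress response genes in red, other genes in grey, the list median as a black bar and the median of all genes of at least 1 CPM (27.0 CPM) as a dashed line. Relatives of the 10 genes have the lowest median (5.38 CPM) and amino acid transporters the highest (313 CPM).

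The deposited annotation joins the 10 genes by function in part. It places ATF4, DDIT3, EIF2AK3 and PPP1R15A in the pathway of protein processing in the endoplasmic reticulum, to which 138 of the 13247 genes (1.04%) belong. DDIT3 and EIF2AK3 are also in its pathway of non-alcoholic fatty liver disease, with 27 genes in all. ATF4 and DDIT3 are the only genes of the table under the complex of CHOP with ATF4, and ATF3 and DDIT3 under that of CHOP with ATF3. These terms describe what was known of the genes and carry no measurement.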

How the data were processed

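Reads of 3 RIP-seq libraries were processed by the authors with CASAVA 1.4 and build hg38, per the submitters' processing notes; no source used here names the aligner or counter. The columns used from the deposited table hold unnormalised read counts for each gene, as its header says. The header also describes normalised columns, and more columns of each kind than are present. A further 3 per-sample columns that repeat the count columns' names were not used. Samples and groups came from the labels. Counts were scaled to CPM by library totals, log2 values used a pseudocount of 1 CPM, and the background was every gene whose mean reached 1 CPM. The between-library test used the whole table and was tested on simulated data. Planned ratios per coding length could not be formed, and count ratios took their place.

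Of the table's genes, 12819 (96.8%) were matched by identifier to the RefSeq table of GRCh38.p14, which gave current symbols and positions; sequences came from RefSeq. The members, lists and tests were chosen with earlier results of these data known. Named genes were the 10 members, DDX49 and, for each list, the 3 highest and those below 1 CPM. List genes named as called between libraries, and others marked in the text, were added after their values were seen. Cell type markers named were from the hepatocyte list only: the highest, those at 0 counts and CEBPA. Markers of other cell types were also looked at and are not described here. Alternatives were other count minimums, size factors, pseudocounts and backgrounds, and leaving out replicates. Tools were Python 3.11.15, numpy 2.4.6, scipy 1.17.1, pandas 2.3.3, matplotlib 3.10.9, R 4.3.3, edgeR 4.0.16 and DESeq2 1.42.0.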

Additional observations from a re-analysis of the deposited data

How the results depend on the processing

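The median distance of the 10 genes from all genes moved from 0.97 to 1.62 with no filter on the background and to 0.19 against genes of at least 10 CPM, as each filter shifts the median on the background's side. It was 1.00 with a pseudocount of 0.1 CPM and ranged from 0.88 to 1.07 with 1 replicate left out. The number of members differing between libraries was 2 or 3, of 8 to 10 tested, under other count minimums, size factors and totals without DDX49. Of all genes tested, 17.1% to 22.7% were called under these settings. Whichever replicate was left out, where fewer libraries are compared, 1 member of 8 or 9 tested was called. The share of all genes was then 5.80% to 16.6%. The count ratios were chosen after the data were seen. Leaving out 1 of 3 libraries cannot move a mean by 1 SD, so such means of levels and ratios do not bear on stability. The median distance is also a mean over libraries, so its range with 1 replicate left out bears little on stability. The mean of DDIT4 moved by more than its SD without DDX49 in the totals (388 CPM). The median coefficient of variation was 16.9% when taken from the sample SD less its Poisson part. Ratios and backgrounds per coding length were not run. No paired analysis was possible because the series has 1 group. Depth limits CHAC1, ASNS and SESN2 most.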
